A study of Mus musculus with 5 samples.

Results

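Elf4, Bcl6, Tet3 and Cited4 are 4 regulators of transcription and chromatin whose RNA was lower in mouse embryonic stem cells lacking the −45 super-enhancer. They were picked by symbol from the exon-bin table, where they hold 31 of 243715 exon bins and are 4 of 24538 genes (10855 of them gene symbols). They were chosen because they were lower in this very comparison, so their levels and differences are given as a description, with no test. Super-enhancers are stretches of closely spaced enhancers, and the −45 element takes its name from how far it lies from the pluripotency gene Nanog. Polyadenylated RNA was sequenced from 2 libraries labelled −45 SE deleted (deleted 1 and 2) and 3 libraries labelled wildtype (wildtype 1 to 3), all described as murine ESC. The labels name no strain, parent line or clone. They give a treatment of 6 days with tamoxifen (4OHT) or its ethanol vehicle, without saying which library received which. They do not say whether replicates were separate cultures, so p-values below reflect only how these 5 libraries vary, which could be technical. The design text speaks of 3 replicates per condition, while 2 deleted libraries were analysed here.

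Elf4 encodes an ETS-family activator best known in lymphocytes and innate immune cells, where it drives perforin and type I interferon genes. Bcl6 encodes a BTB zinc-finger repressor that recruits the corepressors NCOR, SMRT and BCOR and controls germinal-centre B cells, and in cultured cells it can be induced through cytokine receptors and STAT factors. Tet3 encodes a dioxygenase that oxidises 5-methylcytosine, and it is the TET enzyme of the oocyte and zygote, while Tet1 and Tet2 are the main ones of embryonic stem cells. Cited4 encodes a small coactivator without a DNA-binding domain that binds CBP and p300 and works with TFAP2 factors.

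The sequences just upstream of each start site are shown because the 4 genes were lower together. They come from RefSeq (GRCm38.p6), where all 4 symbols matched, and comprise 250 bases ending at the base before the start, written 5′ to 3′. Elf4 and Bcl6 have an outer and an inner start each. Capitals mark matches, on either strand, to 8 motifs. TTCNNNGAA is bound by STAT factors, and GCCNNNGGC is bound by AP-2 factors. CACGTG is the E-box, CCGGAAG is a strong ETS motif, and the octamer ATGCAAAT is bound by OCT factors. CCAAT gives the box of that name, GGGCGG forms the GC box, and TGACG occurs in cyclic AMP response elements (CRE).
Elf4 outer start (chrX:48463133-48463382, minus strand): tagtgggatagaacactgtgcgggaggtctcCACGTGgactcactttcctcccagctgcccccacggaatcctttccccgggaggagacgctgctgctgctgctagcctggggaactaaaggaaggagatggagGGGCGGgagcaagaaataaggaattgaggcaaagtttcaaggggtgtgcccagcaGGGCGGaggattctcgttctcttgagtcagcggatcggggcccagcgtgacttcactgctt
Elf4 inner start (chrX:48454320-48454569, minus strand): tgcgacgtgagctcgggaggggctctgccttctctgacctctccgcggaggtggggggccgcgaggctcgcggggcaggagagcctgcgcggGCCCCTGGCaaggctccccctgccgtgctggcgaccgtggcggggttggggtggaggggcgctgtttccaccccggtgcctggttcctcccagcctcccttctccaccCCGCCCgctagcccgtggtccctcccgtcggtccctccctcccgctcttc
Bcl6 outer start (chr16:23988853-23989102, minus strand): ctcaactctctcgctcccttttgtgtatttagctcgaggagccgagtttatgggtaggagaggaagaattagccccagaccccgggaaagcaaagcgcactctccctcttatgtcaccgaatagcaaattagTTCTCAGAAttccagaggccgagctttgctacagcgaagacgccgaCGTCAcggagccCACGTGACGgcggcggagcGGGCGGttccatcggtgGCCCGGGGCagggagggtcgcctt
Bcl6 inner start (chr16:23981284-23981533, minus strand): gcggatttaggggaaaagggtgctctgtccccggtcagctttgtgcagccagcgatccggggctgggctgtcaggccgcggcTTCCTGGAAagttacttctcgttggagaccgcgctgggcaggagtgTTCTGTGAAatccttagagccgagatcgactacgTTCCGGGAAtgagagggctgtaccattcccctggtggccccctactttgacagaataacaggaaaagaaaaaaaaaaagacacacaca
Tet3 (chr6:83441679-83441928, minus strand): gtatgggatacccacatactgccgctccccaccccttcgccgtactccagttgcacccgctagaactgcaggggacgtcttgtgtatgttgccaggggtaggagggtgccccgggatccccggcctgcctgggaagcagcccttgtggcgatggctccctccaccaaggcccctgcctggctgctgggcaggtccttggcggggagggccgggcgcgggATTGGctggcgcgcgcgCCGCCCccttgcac
Cited4 (chr4:120666313-120666562, plus strand): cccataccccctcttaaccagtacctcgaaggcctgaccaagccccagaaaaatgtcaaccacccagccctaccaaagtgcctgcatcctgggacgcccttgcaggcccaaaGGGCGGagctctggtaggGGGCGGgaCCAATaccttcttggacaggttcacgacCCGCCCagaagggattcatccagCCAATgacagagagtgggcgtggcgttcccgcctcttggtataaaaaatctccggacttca
A GC box was found upstream of all 4 genes, in 5 of the 6 windows, and 32.7% of 32851 RefSeq windows of this length hold it. The STAT motif was found only upstream of Bcl6, with 1 match at the outer and 3 at the inner start, against 7.02% of all windows with a match. An E-box stood upstream of the outer Elf4 and outer Bcl6 starts (6.02% of windows). At Bcl6 it shares its last bases with a CRE-type site (17.8% of windows), of which that window holds another. A CCAAT box stood upstream of Cited4, with 2 matches, and Tet3, with 1 (33.8% of windows). AP-2 matches lay upstream of the outer Bcl6 and inner Elf4 starts (13.7% of windows). No match to the ETS (6.91%) or octamer (1.60%) letters lay in the 6 windows. GC content was between 54.8% and 74.4%, against a median of 52.4% over all windows. These matches describe letters, not binding.

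Bin counts totalled 93574609 and 99134363 in the deleted libraries, against 114838600 to 213042746 in wildtype, wildtype 3 being the deepest. The counter is not stated, and under the rule of the DEXSeq tool reads that cross bins are counted once in every bin they touch. Levels are in CPM, counts scaled to a common library size with edgeR's TMM factors, summed over the bins of a gene. Of 16259 tested genes, 39.5% passed edgeR's quasi-likelihood test at an adjusted p under 0.05. Among 3591 tested gene symbols, 12.9% were lower and 18.9% higher in deleted libraries, together 31.8%, and the median log2 fold change was 0.07. None of 14 embryonic stem cell markers, Nanog among them, had a row under its symbol, since most genes are listed under assembly IDs that the table does not pair with symbols. The labelled cell type and the targeted locus were therefore not checked. All 4 regulators had at least 13 counts in every library and are among the 3591 tested symbols. No test result is given for them, since they were chosen from this comparison.

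Cited4, the coactivator, differed most. Its single bin held 18 and 13 counts in deleted libraries, against 118, 109 and 206 in wildtype. These are 0.193 and 0.131 CPM in deleted libraries, against 0.948, 0.954 and 0.953 CPM in wildtype. The wildtype libraries lay within 1.01-fold of each other, closer than counting error at 109 to 206 counts would usually allow. Their SD therefore understates the error. The deleted libraries differed 1.47-fold, on few counts. The deleted mean was 0.162 ± 0.0436 CPM (SD, n = 2) and the wildtype mean 0.952 ± 0.00295 CPM (SD, n = 3). The fitted log2 fold change, deleted minus wildtype, was −2.55 ± 0.21 (SE), or 17.0% of the wildtype level. Only 12 of the 3591 tested symbols had a lower log2 fold change.

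Elf4, the ETS activator, was the most abundant of the 4. Its level was 2.13 and 1.97 CPM in deleted libraries, against 4.79, 5.87 and 5.25 CPM in wildtype. The lowest wildtype library stood 2.25-fold above the highest deleted library. Means were 2.05 ± 0.116 CPM in deleted and 5.30 ± 0.542 CPM in wildtype libraries, a log2 fold change of −1.37 ± 0.12 (SE), or 38.7% of wildtype. In all, 110 tested symbols had a lower log2 fold change.

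Tet3, the methylcytosine dioxygenase, was at 1.86 and 1.90 CPM in deleted libraries, against 2.60, 3.08 and 3.43 CPM in wildtype. The deleted libraries were close together, and the wildtype libraries differed 1.32-fold, wildtype 3 being highest. The log2 fold change was −0.70 ± 0.14 (SE), or 61.7% of wildtype, between means of 1.88 ± 0.0234 and 3.04 ± 0.420 CPM. Bcl6, the BTB zinc-finger repressor, was at 1.14 and 1.12 CPM in deleted libraries, against 1.80, 1.82 and 1.75 CPM in wildtype. Its libraries agreed within 1.04-fold in each group. The log2 fold change was −0.66 ± 0.11 (SE), or 63.1% of wildtype, between means of 1.13 ± 0.0109 and 1.79 ± 0.0366 CPM. For both genes the groups did not overlap, as for Elf4 and Cited4. Both deleted libraries were below all wildtype ones in 24.2% of tested symbols, and the choice of the 4 genes fixes this count.

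**Figure D1:**
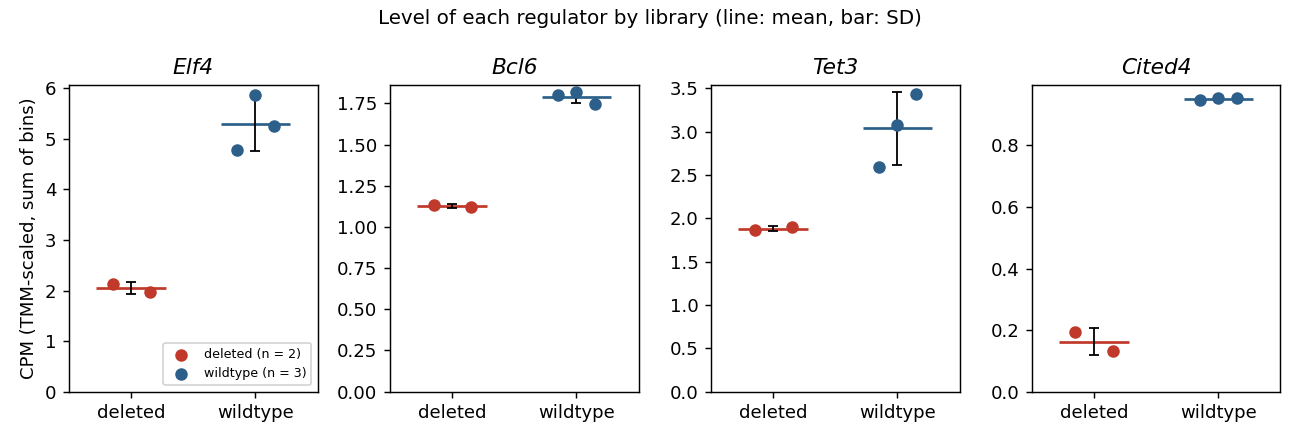
CPM (summed bins, TMM-scaled) of Elf4, Bcl6, Tet3 and Cited4 in each library, with deleted (n = 2) left of wildtype (n = 3), the group mean as a line and the SD as a bar. In each panel both deleted libraries lie below all wildtype libraries, with the widest relative gap in Cited4 (0.162 against 0.952 CPM).

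**Figure D2:**
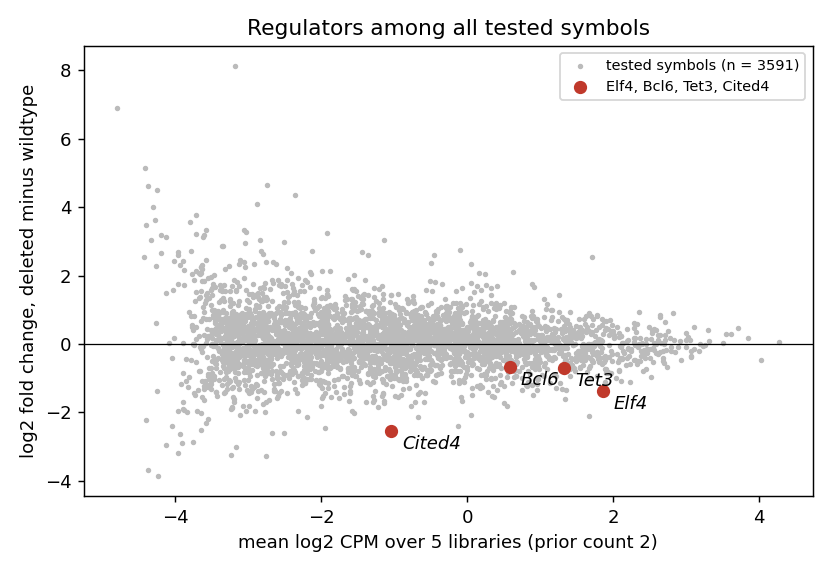
Log2 fold change, deleted minus wildtype, against the mean log2 CPM over 5 libraries for 3591 tested symbols (grey), with the 4 regulators in red. Elf4 lies low among well-counted symbols at −1.37, Tet3 and Bcl6 lie nearer the cloud at −0.70 and −0.66, and Cited4 lies at −2.55 among less counted symbols.

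Per kilobase of exon, the order of the 4 genes differed between groups. Lengths were taken from GENCODE vM21 transcripts with as many exons as the gene has bins, averaged over both transcripts of Elf4. In deleted libraries Elf4 was highest at 0.344 ± 0.0195 CPM per kb, followed by Bcl6 at 0.320 ± 0.00310, Tet3 at 0.173 ± 0.00215 and Cited4 at 0.130 ± 0.0349 CPM per kb (SD, n = 2). In wildtype libraries Elf4 was also highest at 0.889 ± 0.0909 CPM per kb, followed by Cited4 at 0.762 ± 0.00236, Bcl6 at 0.508 ± 0.0104 and Tet3 at 0.279 ± 0.0386 CPM per kb (SD, n = 3). Cited4 thus stood second in wildtype and last in deleted libraries. If reads that cross bins were counted in each, this raises genes of several bins but not the single bin of Cited4. How far this sets the order of the 4 genes was not tested. The gaps between Elf4 and Bcl6, and between Tet3 and Cited4, in deleted libraries were little larger than the wider SD of each pair.

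The deleted mean was below the wildtype mean in 30 of the 31 exon bins, a count that follows from the choice of the genes. Among 37268 bins of tested symbols with any count, this held for 47.7%. Both deleted libraries were below all wildtype ones in 23 of the 31 bins, against 12.7% of those bins. These were 8 of 9 in Elf4, all 10 in Bcl6, 4 of 11 in Tet3 and the single bin of Cited4. The numbers of bins equal the numbers of exons of Elf4-201 and Elf4-202, Bcl6-201, Tet3-202 and Cited4-201 in GENCODE vM21. The table gives no bin positions. If bins run along the chromosome as the DEXSeq tool numbers them, bin 1 is the last exon of Elf4, Bcl6 and Tet3, which lie on the minus strand. Only 7 of the 31 bins had at least 10 counts in every library, and ratios are given for those alone.

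In Elf4, bin 1 carried most of the counts. It held 133 and 126 counts in deleted libraries, against 402, 449 and 817 in wildtype, which is 1.35 ± 0.108 against 3.65 ± 0.368 CPM and a log2 ratio of −1.44. Bin 2 held 14 and 19 counts against 40, 46 and 85, a log2 ratio of −1.12. The smaller bins showed the same order of groups. Bin 3 held 10 and 9 counts in deleted libraries against 34, 32 and 49 in wildtype, and bin 4 held 4 and 6 against 21, 30 and 22. Bin 5 held 11 and 8 counts in deleted libraries against 35, 46 and 38 in wildtype, and bin 6 held 8 and 6 against 18, 19 and 37. Bin 7 held 9 and 9 counts in deleted libraries against 17, 16 and 38 in wildtype, and bin 8 held 9 and 10 against 23, 30 and 48. Bin 9, the first exon if bins run along the chromosome, was the exception, with 1 and 2 counts in deleted libraries against 6, 3 and 1 in wildtype, where the groups overlapped. So few counts fell there that Elf4-201 and Elf4-202, which differ mainly in this exon, cannot be told apart. Without bin 1, Elf4 stood at 0.702 ± 0.00762 CPM in deleted and 1.66 ± 0.251 CPM in wildtype libraries, a log2 ratio of −1.24. Bin 1 took 65.7% ± 1.57 of the counts of the gene in deleted and 68.8% ± 2.78 in wildtype libraries, a difference of −3.06 percentage points, a little above the wildtype SD. The highest deleted share, 66.8%, was just below the lowest wildtype share, 66.9%.

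In Bcl6, no bin overlapped between groups, and 2 of its 10 bins were counted well enough for a ratio. Bin 1 held 33 and 34 counts in deleted libraries, against 67, 54 and 115 in wildtype, a log2 ratio of −0.56. Bin 6, which would be the fifth exon and the longest internal one at 975 bases, held 26 and 25 counts against 42, 40 and 83, a log2 ratio of −0.43. The other bins held fewer than 10 counts in at least 1 library. Bin 2 held 5 and 6 counts in deleted libraries against 9, 13 and 19 in wildtype, and bin 3 held 8 and 11 against 14, 21 and 26. Bin 4 held 7 and 8 counts in deleted libraries against 15, 16 and 21 in wildtype, and bin 5 held 5 and 8 against 17, 15 and 21. Bin 7 held 9 and 5 counts in deleted libraries against 19, 17 and 26 in wildtype, and bin 8 held 8 and 6 against 25, 19 and 29. These small bins were all lower in deleted libraries once scaled by depth. Bin 9 held 4 and 5 counts in deleted libraries against 9, 8 and 21 in wildtype, and bin 10 held 1 and 3 against 7, 5 and 17. Without bin 1, Bcl6 stood at 0.780 ± 0.00356 CPM in deleted and 1.28 ± 0.0663 CPM in wildtype libraries, a log2 ratio of −0.71. Bin 6 took 23.5% ± 1.42 of the counts in deleted and 20.0% ± 1.73 in wildtype libraries, and bin 8 took 6.48% ± 1.51 and 9.32% ± 1.75.

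In Tet3, the difference lay mostly in bin 1, which would be the last exon of 7453 bases. It held 117 and 121 counts in deleted libraries, against 229, 259 and 539 in wildtype, which is 1.24 ± 0.0229 against 2.20 ± 0.332 CPM and a log2 ratio of −0.83. Bin 9, which would be the third exon of 2158 bases, held 23 and 34 counts in deleted libraries, against 39, 37 and 87 in wildtype. Its levels were 0.295 ± 0.0684 CPM in deleted and 0.347 ± 0.0488 CPM in wildtype libraries, a log2 ratio of −0.23 with overlapping groups. The small bins between them mostly overlapped too. Bin 2 held 5 and 6 counts in deleted libraries against 13, 7 and 25 in wildtype, and bin 3 held 5 and 3 against 8, 11 and 7. Bin 4 held 4 and 3 counts in deleted libraries against 6, 8 and 15 in wildtype, and bin 5 held 6 and 5 against 8, 4 and 17. Bin 6 held 6 and 4 counts in deleted libraries against 8, 7 and 19 in wildtype, and bin 7 held 4 and 6 against 3, 5 and 17. Bins 2 and 4 were the only ones of these 6 without overlap between groups. Bin 8 held 2 and 6 counts in deleted libraries against 3, 9 and 5 in wildtype. Bins 10 and 11 held 1 count each in deleted 1 and 0 in deleted 2, where 0 counts allow up to 0.0303 CPM. In wildtype libraries bin 10 held 3, 4 and 8 counts, and bin 11 held 3, 1 and 3. Bin 7 was the single bin of the 31 with a higher mean in deleted libraries, 0.0517 ± 0.0125 against 0.0488 ± 0.0276 CPM, well within its spread. Without bin 1, Tet3 stood at 0.611 and 0.676 CPM in deleted libraries, against 0.756, 0.814 and 0.939 CPM in wildtype, a log2 ratio of −0.38. Bin 1 took 65.8% ± 2.04 of the counts of Tet3 in deleted and 72.4% ± 1.36 in wildtype libraries, and bin 9 took 15.7% ± 3.44 and 11.4% ± 0.820. Neither share overlapped between groups, and with 2 deleted libraries this is given as a description. The shares of Tet3 bins 5, 7 and 10 and of Elf4 bins 7 and 8 did not overlap either. How often shares fail to overlap among all bins was not counted, and the shares of a gene's bins depend on each other.

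**Figure D3:**
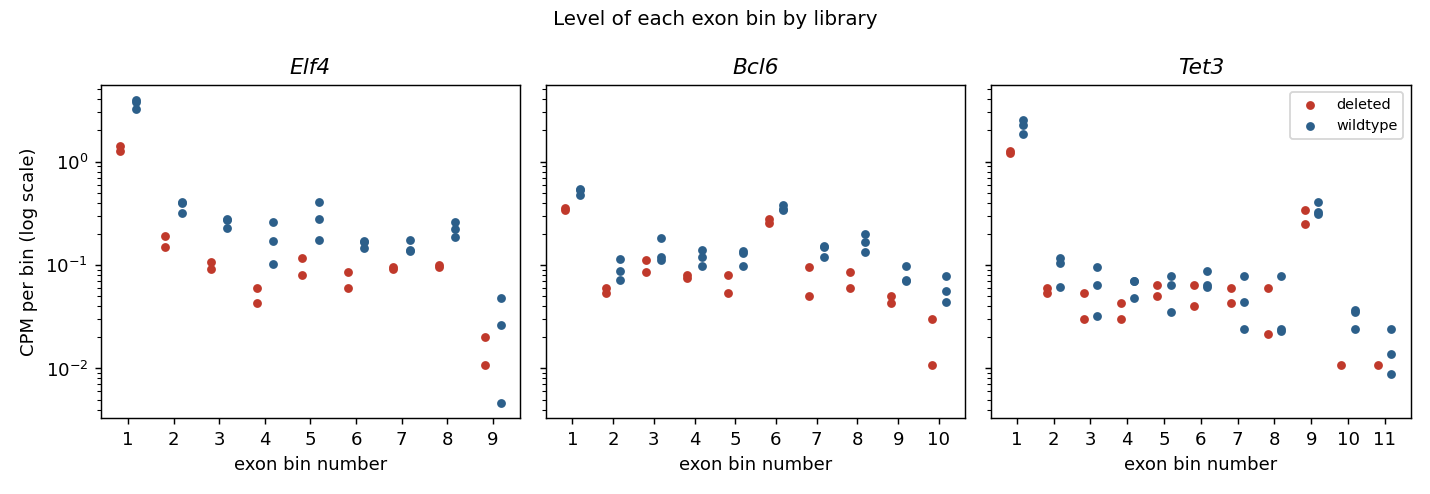
CPM of each exon bin (log axis) of Elf4, Bcl6 and Tet3 in each library, deleted in red on the left and wildtype in blue on the right of each bin; bins 10 and 11 of Tet3 in deleted 2 hold 0 counts and are not drawn. Deleted points lie below wildtype points in 8 of 9 Elf4 bins and 10 of 10 Bcl6 bins, while in Tet3 bin 1 is separated and 7 of 11 bins overlap.

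Chromosomes were taken from RefSeq by symbol, which placed 95.2% of tested symbols. Tet3 lies on chromosome 6, as Nanog does, where the median log2 fold change of 192 tested symbols was 0.10, with 27 lower and 42 higher. Elf4 lies on the X chromosome, where the median of 177 symbols was 0.17, with 22 lower and 49 higher. Bcl6 lies on chromosome 16, where the median of 108 symbols was −0.05, with 18 lower and 10 higher. Cited4 lies on chromosome 4, where the median of 203 symbols was 0.01, with 33 lower and 27 higher. Lower symbols made up 14.1% of those on chromosome 6, 12.4% on X, 16.7% on 16 and 16.3% on 4, against 12.9% of all tested symbols.

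The profile over the 5 libraries was compared with those of 969 tested symbols of a mean log2 CPM of at least 0, by the root mean square difference of centred log2 CPM. The profiles most like that of Elf4 were those of Extl1, a glycosyltransferase gene of the exostosin family, at 0.060, and of the semaphorin gene Sema4c and Prrg3, at 0.092 and 0.093. Extl1 was at 1.46 and 1.46 CPM in deleted libraries, against 3.21, 4.00 and 3.82 CPM in wildtype. Nearest to Bcl6 were the homeobox gene Dmbx1 and the glycosyltransferase gene Galnt16, both at 0.035, and Abca1, a cholesterol exporter gene, at 0.053. Dmbx1 was at 1.02 and 1.03 CPM in deleted libraries, against 1.58, 1.62 and 1.64 CPM in wildtype. Nearest to Tet3 were the deubiquitinase gene Usp27x at 0.037, the dynein chain gene Dync1i1 at 0.059 and the glycine transporter gene Slc6a9 at 0.060. Usp27x was at 1.11 and 1.22 CPM in deleted libraries, against 1.59, 1.90 and 2.07 CPM in wildtype. Cited4 had no close match among these symbols, the nearest being the receptor gene Plxdc2 at 0.29, Megf11 at 0.44 and the splicing regulator gene Celf2 at 0.45. Its own mean log2 CPM was −1.04, so symbols at its level were not searched. Among the 4 regulators themselves, Bcl6 and Tet3 were the most alike at 0.14, and Cited4 was least like these 2 genes, at 0.90 from each. These distances largely restate the difference between groups, from which the 4 genes were chosen, and are given as a description. Extl1, Sema4c and Prrg3 had log2 fold changes of −1.33, −1.31 and −1.35, near the −1.37 of Elf4.

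Most tested relatives and partners of the 4 regulators did not pass the test. Of 196 genes in 8 lists, 49 had rows under their symbols and 31 were tested. Of these, 5 were higher, 4 were lower and 22 did not pass at edgeR adjusted p under 0.05, which is 29.0% called, near the 31.8% of all tested symbols. Their median log2 fold change was −0.08, against 0.07 for tested symbols. Rows under symbols held 328110 counts in deleted 1, against 93246104 under assembly IDs. The tested genes therefore do not speak for partners listed under IDs.

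Of the ETS family of Elf4, 5 of 25 listed genes were tested, of which 1 was lower, 1 was higher and 3 did not pass. Erg, an ETS factor of blood vessels and blood stem cells, was at 0.0536 and 0.121 CPM in deleted libraries, against 0.402, 0.578 and 0.491 CPM in wildtype. It fell by 2.46 ± 0.35 (SE) on the log2 scale (edgeR adjusted p = 0.00146) on 5 and 12 counts in deleted libraries. The log2 fold change of Erg was −2.01 without deleted 1 (edgeR adjusted p = 0.0176) and −3.19 without deleted 2 (edgeR adjusted p = 0.00796). Ets1, best known in lymphocytes, averaged 1.33 ± 0.0929 CPM in deleted and 0.914 ± 0.161 CPM in wildtype libraries. It rose with a log2 fold change of 0.52 ± 0.17 (edgeR adjusted p = 0.0457), a call lost when any single library other than wildtype 3 was left out (edgeR adjusted p = 0.0936 to 0.223). Ehf, an epithelial ETS factor, had 0.65 ± 0.32 (edgeR adjusted p = 0.141) and passed in 3 of 12 alternative settings (edgeR adjusted p = 0.0336 to 0.0451). Spi1, which encodes the myeloid factor PU.1, had 0.30 ± 0.21 (edgeR adjusted p = 0.299). Of 11 genes reported as ELF4 targets, 7 had rows and none was tested. The interferon gene Ifnb1 and Csf2 had 0 counts in every library, and Prf1, the perforin gene, had 1 and 3 counts in deleted libraries against 1, 0 and 0 in wildtype.

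Of the BTB zinc-finger relatives of Bcl6, 5 of 44 listed genes were tested, of which 1 was higher, 1 was lower and 3 did not pass. Zbtb7c averaged 3.66 ± 0.514 CPM in deleted and 4.89 ± 0.455 CPM in wildtype libraries. It fell by 0.42 ± 0.12 on the log2 scale (edgeR adjusted p = 0.0301), a call lost when deleted 1 was left out (log2 fold change −0.28, edgeR adjusted p = 0.219) and when wildtype 2 was (edgeR adjusted p = 0.0647). Zbtb42 rose to 0.846 ± 0.0598 CPM in deleted libraries, against 0.580 ± 0.0474 CPM in wildtype, with edgeR adjusted p = 0.0281. Leaving out any single library other than wildtype 3 ended the Zbtb42 call (edgeR adjusted p = 0.0638 to 0.179). Zbtb16, which encodes the germline stem cell factor PLZF, and Zbtb4, a binder of methylated DNA, had log2 fold changes of −0.84 ± 0.48 and −0.46 ± 0.28 (edgeR adjusted p = 0.203 and 0.224). Counted in the best counted bin alone, Zbtb4 passed at −0.88 (edgeR adjusted p = 0.0404). Of 18 BCL6 corepressor genes only Hdac9, a class IIa deacetylase gene, was tested, at −0.29 ± 0.23 (edgeR adjusted p = 0.354).

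Among genes that BCL6 represses in lymphocytes, 7 of 22 were tested, of which 1 was higher and 6 did not pass. S1pr1, a sphingosine-1-phosphate receptor gene of lymphocyte exit, was at 0.246 and 0.212 CPM in deleted libraries, against 0.104, 0.123 and 0.125 CPM in wildtype. It rose with a log2 fold change of 0.95 ± 0.28 (edgeR adjusted p = 0.0291), and leaving out any single library other than wildtype 3 ended the call (edgeR adjusted p = 0.0554 to 0.176). Tbx21, which encodes T-bet, the survival gene Bcl2 and the nuclear receptor gene Rora had 0.54 ± 0.24, −0.35 ± 0.25 and −0.11 ± 0.11 (edgeR adjusted p = 0.108, 0.304 and 0.465). Of the LIF and STAT list, 3 of 22 genes were tested. Lif, which encodes the cytokine that sustains mouse embryonic stem cells, was at 1.53 and 1.43 CPM in deleted libraries, against 2.18, 2.10 and 2.27 CPM in wildtype. It fell by 0.56 ± 0.11 on the log2 scale (edgeR adjusted p = 0.00571) and passed in 12 of 12 alternative settings (edgeR adjusted p = 0.00142 to 0.0496). Stat5a, a transcription factor gene of cytokine signalling, rose to 2.19 ± 0.0472 CPM in deleted libraries, against 1.51 ± 0.111 CPM in wildtype (edgeR adjusted p = 0.00852). Leaving out either deleted library ended the Stat5a call (edgeR adjusted p = 0.0513 and 0.0720). The kinase gene Jak2 had a log2 fold change of −0.01 ± 0.11 (edgeR adjusted p = 0.949).

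Of the DNA methylation list around Tet3, 4 of 34 genes were tested, of which 1 was lower and 3 did not pass. Tet1, Tet2 and the DNA methyltransferase genes had no row under their symbols. Gadd45g, a growth-arrest gene linked to DNA demethylation, was at 0.161 and 0.101 CPM in deleted libraries, against 0.249, 0.263 and 0.255 CPM in wildtype. It fell by 0.97 ± 0.29 on the log2 scale (edgeR adjusted p = 0.0330), and leaving out any single library other than wildtype 3 ended the call (edgeR adjusted p = 0.0567 to 0.197). Apobec1, a cytidine deaminase gene, had 0.15 ± 0.13 (edgeR adjusted p = 0.403). Of the CITED and CBP list around Cited4, 6 of 21 genes were tested, of which 1 was higher and 5 did not pass. Arnt2, a partner of hypoxia-inducible factors, rose to 5.45 ± 0.527 CPM in deleted libraries, against 4.05 ± 0.470 CPM in wildtype, a log2 fold change of 0.43 ± 0.12 (edgeR adjusted p = 0.0249). Leaving out any single library other than wildtype 3 ended that call (edgeR adjusted p = 0.0567 to 0.216). Cited1, the relative of Cited4, was at 0.514 and 0.495 CPM in deleted libraries, against 0.458, 0.429 and 0.407 CPM in wildtype (log2 fold change 0.23 ± 0.18; edgeR adjusted p = 0.331). Tfap2a, which encodes AP-2α, and Hif3a had 0.33 ± 0.15 and −0.17 ± 0.11 (edgeR adjusted p = 0.111 and 0.261), and Tfap2a passed at 0.44 without wildtype 3 and with the replicate block (edgeR adjusted p = 0.0314 and 0.0393).

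Over 12 alternative settings, the Ets1 call held in 4, Zbtb42 in 7, Zbtb7c in 10, S1pr1 in 6 and Stat5a in 10. Gadd45g held in 6 and Arnt2 in 8, and Erg held in all 11 settings that tested it. The setting of at least 10 counts in every library did not test Erg, which had 5 counts in deleted 1. Erg reached the low-count filter mainly through its wildtype libraries, where it is high, which partly sets its call.

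**Figure D4:**
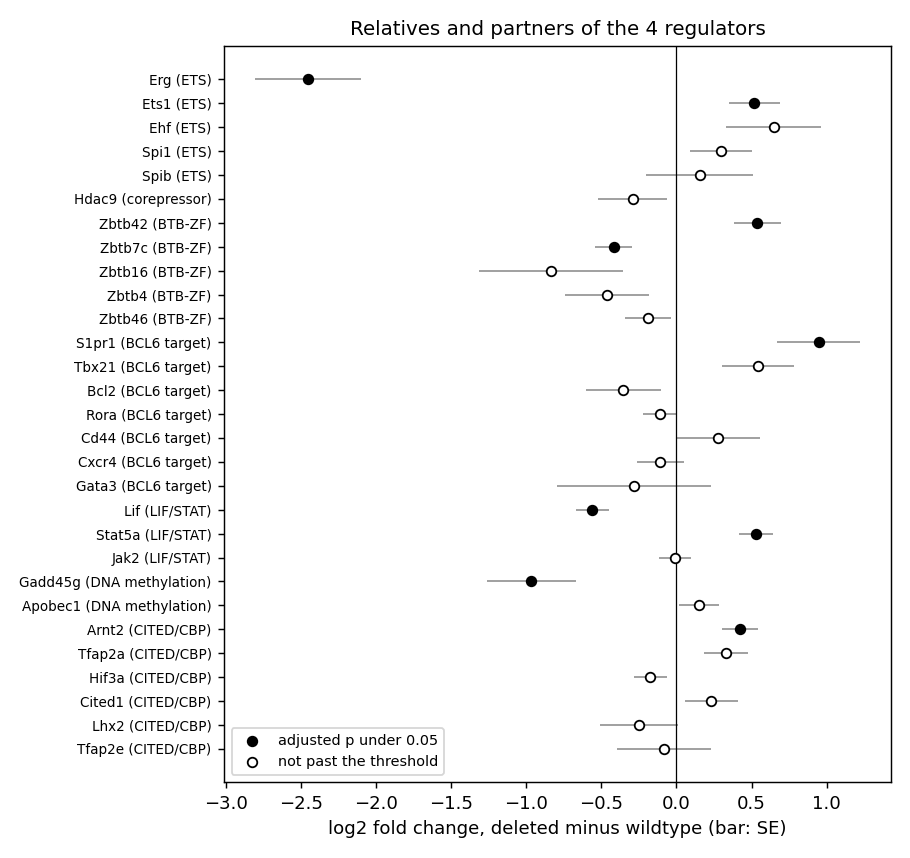
Log2 fold change, deleted minus wildtype, with its SE for 29 of the 31 tested relatives and partners, grouped by list; filled points passed edgeR adjusted p under 0.05. The 9 filled points lie on both sides of 0, with Erg lowest at −2.46 and S1pr1 highest at 0.95.

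In bulk RNA, fewer cells of a type and less RNA per cell cannot be told apart. Beside the marker counts below, 12.9% of all tested symbols were lower and 18.9% higher. Of 17 lymphocyte and blood markers, where Elf4 and Bcl6 are best known, 11 had rows and 2 were tested. Itgam and Cd79a were both lower, by 0.52 ± 0.10 and 0.41 ± 0.14 on the log2 scale (edgeR adjusted p = 0.00450 and 0.0462). Leaving out deleted 1 ended the Itgam call (edgeR adjusted p = 0.0516), and leaving out any single library ended the Cd79a call (edgeR adjusted p = 0.0767 to 0.164). The 11 markers summed to 3.56 and 3.82 CPM in deleted libraries, against 4.90 to 5.27 CPM in wildtype, and Itgax and Rag1 had 0 counts in every library. Itgam alone made up most of each sum, at 2.68 and 2.93 CPM in deleted and 3.87 to 4.21 CPM in wildtype libraries. Fibroblast markers, for possible feeder cells, summed to 13.4 and 13.6 CPM in deleted libraries, against 9.81 to 12.7 CPM in wildtype, with 3 of 6 tested higher. Col1a2, Pdgfrb and Col5a2 were higher, while Col1a1, Fbn1 and Twist1 did not pass. Fbn1 alone was at 6.22 and 6.13 CPM in deleted and 4.69 to 6.90 CPM in wildtype libraries. Pdgfrb did not pass in the best counted bin (edgeR adjusted p = 0.0765), nor Col5a2 without wildtype 1 or wildtype 2 (edgeR adjusted p = 0.0698 and 0.0626). Primitive endoderm markers summed to 5.11 and 6.44 CPM in deleted libraries, against 7.89 to 9.07 CPM in wildtype, with 3 of 8 tested lower. Those were Cubn, Sox7 and Pdgfra, while Gata4, Gata6, Sox17, Dab2 and Foxa2 did not pass. Cubn averaged 0.442 CPM in deleted libraries, from 0.279 and 0.606 CPM, and 1.87 CPM in wildtype libraries. In the best counted bin alone the Cubn call was lost (log2 fold change −0.80, edgeR adjusted p = 0.172). The Sox7 and Pdgfra calls held there (edgeR adjusted p = 0.00382 and 0.0295). Without deleted 1, the log2 fold change of Pdgfra was −0.74, against −1.02 with all libraries. Markers of two-cell-like cells summed to 16.0 and 16.2 CPM in deleted libraries, against 2.74 to 3.02 CPM in wildtype, with 9 of 9 tested higher. Some of these genes reached the low-count filter through their deleted libraries, which partly sets the last count. The part of these markers in the levels of the 4 regulators was not tested.

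The log2 fold changes of the 4 regulators stayed below 0 under the 12 alternative settings, in which Cited4 was lowest and Elf4 next. The sign follows from the choice of the genes, since both deleted libraries lay below all wildtype ones in each. Elf4 lay between −1.45 and −1.30 with any library left out, Tet3 between −0.81 and −0.60, Bcl6 between −0.69 and −0.65, and Cited4 between −2.85 and −2.32. Without wildtype 3 they were −1.39, −0.60, −0.69 and −2.56 for Elf4, Tet3, Bcl6 and Cited4. Counted in the best counted bin alone, Tet3 was at −0.81 and Bcl6 at −0.54.

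**Figure D5:**
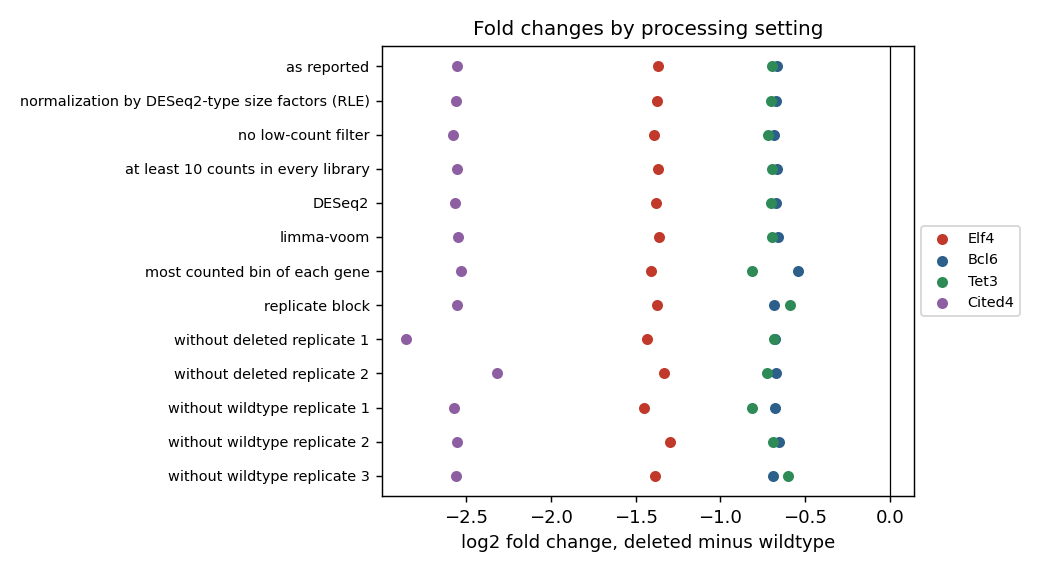
Log2 fold change, deleted minus wildtype, of the 4 regulators as reported and under 12 alternative settings of normalization, filter, tool, counted bin, replicate block and left-out library. All values lie below 0, which follows from the choice of the genes, with Cited4 spread most when a deleted library is left out (−2.85 and −2.32).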

How the data were processed

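Read counts per exon bin were deposited by the authors as 1 table for 5 libraries. Per the submitters' processing notes STAR and mm9 were used, while counter, annotation and strand setting are not stated there or in the labels. Unless counting used strand, reads of a gene and its antisense partner mix, and an assembly ID overlapping a symbol may take part of its reads. Spike-ins (56 rows) were left out. Bin counts were summed per gene. After filterByExpr and TMM scaling, edgeR 4.0.16 (R 4.3.3) ran its quasi-likelihood F test, with Benjamini-Hochberg adjustment over all 16259 tested genes. DESeq2 1.42.0 and limma-voom (limma 3.58.1) were alternatives. Chi-square per degree of freedom was 9.96 between wildtype 1 and wildtype 2, and 21.9 between the deleted libraries. Between wildtype 3 and wildtype 1 it was 93.4, and between wildtype 3 and wildtype 2 it was 87.4. Why wildtype 3 stood apart was not tested. Reads counted in several bins would raise all these values, and each library was kept as a replicate. The limit given for 0 counts covers counting error only. Named genes were the 4 regulators, the 3 tested symbols with the most similar profile to each, and up to 4 tested genes per list by p. Results of 2 genes under this rule are not reported here. Markers were chosen apart from that rule. The regulators and lists were chosen with earlier results of these data known. Symbols were matched to RefSeq and GENCODE vM21 (GRCm38), a build other than that of the counts.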

Additional observations from a re-analysis of the deposited data

How the results depend on the processing

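The log2 fold changes of Elf4, Tet3, Bcl6 and Cited4 kept their sign in 12 of 12 alternatives. These refit the libraries from which the genes were chosen as lower, so the kept sign follows from that choice. Bcl6 moved beyond its spread between replicates in the best counted bin (−0.54) and without wildtype 3 (−0.69), and Cited4 did without deleted 1 (−2.85) and without deleted 2 (−2.32). That spread was 0.0253 on the log2 scale for Bcl6, below its fitted SE of 0.11, and 0.165 for Tet3. Smaller moves are therefore marked for Bcl6 than for Tet3. With a library left out, the ranges were −1.45 to −1.30 for Elf4, −0.81 to −0.60 for Tet3, −0.69 to −0.65 for Bcl6 and −2.85 to −2.32 for Cited4. Calls over all tested genes numbered 6421 and ranged from 3206 (without deleted 1) to 8282 (without wildtype 3), with 3864 without deleted 2. Calls among symbols numbered 1141, ranged from 546 to 1227 with a library left out, and were 759 in the best counted bin. With a library left out, called genes ranged from 1 to 3 in the ETS list, 0 to 2 in the BTB zinc-finger and CITED lists, 0 to 1 in the BCL6 target and DNA methylation lists, and 1 to 2 in the LIF and STAT list. The ETS count was 1 with no low-count filter, with a minimum of 10 counts in each library, with DESeq2 and with limma-voom. With DESeq2 it was 1 in the BTB zinc-finger list and 0 in the BCL6 target and DNA methylation lists. With the replicate block it was 0 in the BCL6 target and DNA methylation lists and 2 in the CITED list. The block took calls over all genes to 8250, and deviations of same-numbered libraries correlated at 0.054 and −0.054, so the numbers are not taken to pair libraries. In the ELF4 target and corepressor lists edgeR, DESeq2 and limma-voom called 0 genes, and 0 had an unadjusted edgeR p under 0.05, with Hdac9 the only gene tested with edgeR. The share of bin 1 in deleted minus wildtype libraries was −3.06 percentage points for Elf4, 2.12 for Bcl6 and −6.57 for Tet3. Over bins holding 10 counts or more throughout, that of Bcl6 was −2.22. With a library left out, the shares ranged from −4.17 to −1.46 for Elf4, 0.714 to 2.95 for Bcl6 and −8.01 to −5.13 for Tet3. The causes were not tested. Depth limits most bins, 24 of 31 having under 10 counts in some library.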
